A study of Mus musculus with 6 samples.

Results

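Collagen genes were taken as the genes of the count table that the GENCODE M21 annotation types as protein-coding and whose symbol reads Col, a number, the letter a and a number. This gave 44 of the 54232 genes in the table. They divide into 11 fibrillar genes, 6 basement membrane genes, 9 genes of the fibril-associated collagens with interrupted triple helices (FACIT), and 18 others. The others are 6 beaded filament, 2 multiplexin, 4 transmembrane and 3 short chain network genes, and 3 that form anchoring fibrils or belong to no larger class. RNA came from testes of mice at postnatal day 4, from 3 samples labelled conditional knockout (cKO) for Dis3l2 and 3 labelled wild type (WT), with B6D2F1 as the strain of both. Dis3l2 encodes a cytoplasmic RNase that breaks down RNAs tagged with uridines at their end. The labels give neither the Cre driver nor the deleted exons of the cKO, and separate animals behind the samples are not stated, so a p-value here weighs a difference only against sample spread that may be technical.

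Collagens are secreted or membrane-bound proteins whose chains wind into trimers. Fibrillar collagens build the cables of loose connective tissue, FACIT collagens sit on the surface of those cables, and collagen IV forms the sheet-like network of basement membranes. In the testis, collagen IV lies in the basement membrane between the seminiferous cords and the peritubular myoid cells, and fibrillar collagens fill the layer around the cords and the interstitium.

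Library totals ranged from 26126694 to 43265614 counts, and 20153 genes had enough counts to be tested. Sertoli cell, germ cell, Leydig cell, stromal and myoid marker genes were all detected in every library. Counts over the whole Dis3l2 gene gave 30.6, 31.0 and 33.6 CPM (counts scaled to library size) in cKO libraries 1, 2 and 3, against 32.8, 31.0 and 32.1 CPM in WT libraries 1, 2 and 3. These counts overlapped between the groups and do not check the genotype labels, since the deleted part is not given. The summed level of 10 germ cell markers was 573, 599 and 574 CPM in cKO, against 1041, 1113 and 1052 CPM in WT, and 8 of the 10 fell. The summed level of 12 Sertoli cell markers was 7433, 8129 and 8083 CPM in cKO, against 6563, 6756 and 6771 CPM in WT, and 4 of the 12 rose. In whole testes, fewer cells of a type and less RNA per cell cannot be told apart.

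The library cKO replicate 1, which has the lowest total, stood apart from the other cKO libraries in the collagen genes. It was at least 1.5 times as high as each of the other cKO libraries in 11 of the 42 collagen genes tested, and as far below both of them in 0. Of all genes tested, 7.67% were as high in this library and 3.18% as low. For the other 5 libraries, each set against the rest of its own group, the high share of all genes lay between 1.75% and 3.06%. Their low share lay between 3.23% and 4.93%. The 11 genes were Col1a1, Col11a1, Col27a1, Col9a2, Col12a1, Col14a1, Col6a3, Col6a4, Col6a5, Col6a6 and Col8a1. Postn, a matricellular protein of fibroblasts that binds collagen, showed the same split, with 268 CPM in cKO replicate 1 and 93.6 and 82.6 CPM in cKO replicates 2 and 3, against 255, 209 and 206 CPM in WT. Markers of the mesothelium that covers the testis moved the other way in this library. Upk3b had 3.28, 12.2 and 12.8 CPM in cKO, against 14.3, 17.9 and 19.1 CPM in WT, and Msln had 0.648, 2.46 and 2.12 CPM in cKO, against 3.64, 4.28 and 4.74 CPM in WT. The part of this library's make-up in the collagen results was not tested. Every collagen gene whose call changes without it is named with that change or counted with its class, and the counts of each list are given both ways. The library was set apart on the values of these same genes, and leaving it out takes away spread where it lies apart. Adjusted p-values without it therefore describe the other 5 libraries and are no separate support for a change.

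Of the 42 collagen genes tested, 3 rose and 6 fell in cKO testes (edgeR quasi-likelihood test, adjusted p under 0.05 over all genes tested). Over all genes tested, 3.4% rose and 4.94% fell. The genes that rose were Col4a3, Col15a1 and Col23a1, and those that fell were Col1a2, Col3a1, Col11a1, Col9a2, Col16a1 and Col8a2. The other 33 did not pass. An unadjusted p under 0.05 was reached by 23 of the 42, and by 4699 of all 20153 genes tested. The remaining members, Col19a1 and Col10a1, had too few counts to be tested. The median log2 fold change of the collagen genes was -0.14, against 0.01 for all genes tested. All 3 cKO libraries lay below all 3 WT libraries in 9 collagen genes, which compares with 14.6% of all genes, and above them in 4, against 13.6% of all genes. Without cKO replicate 1, 9 collagen genes rose and 21 fell, against 8.09% and 8.26% of all genes, and the median was -0.24, against -0.00 for all genes. Without cKO replicate 2 the count of falls was 1 and the median -0.08, and the count was 2 without cKO replicate 3 and 1 without each WT library in turn.

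**Figure D1:**
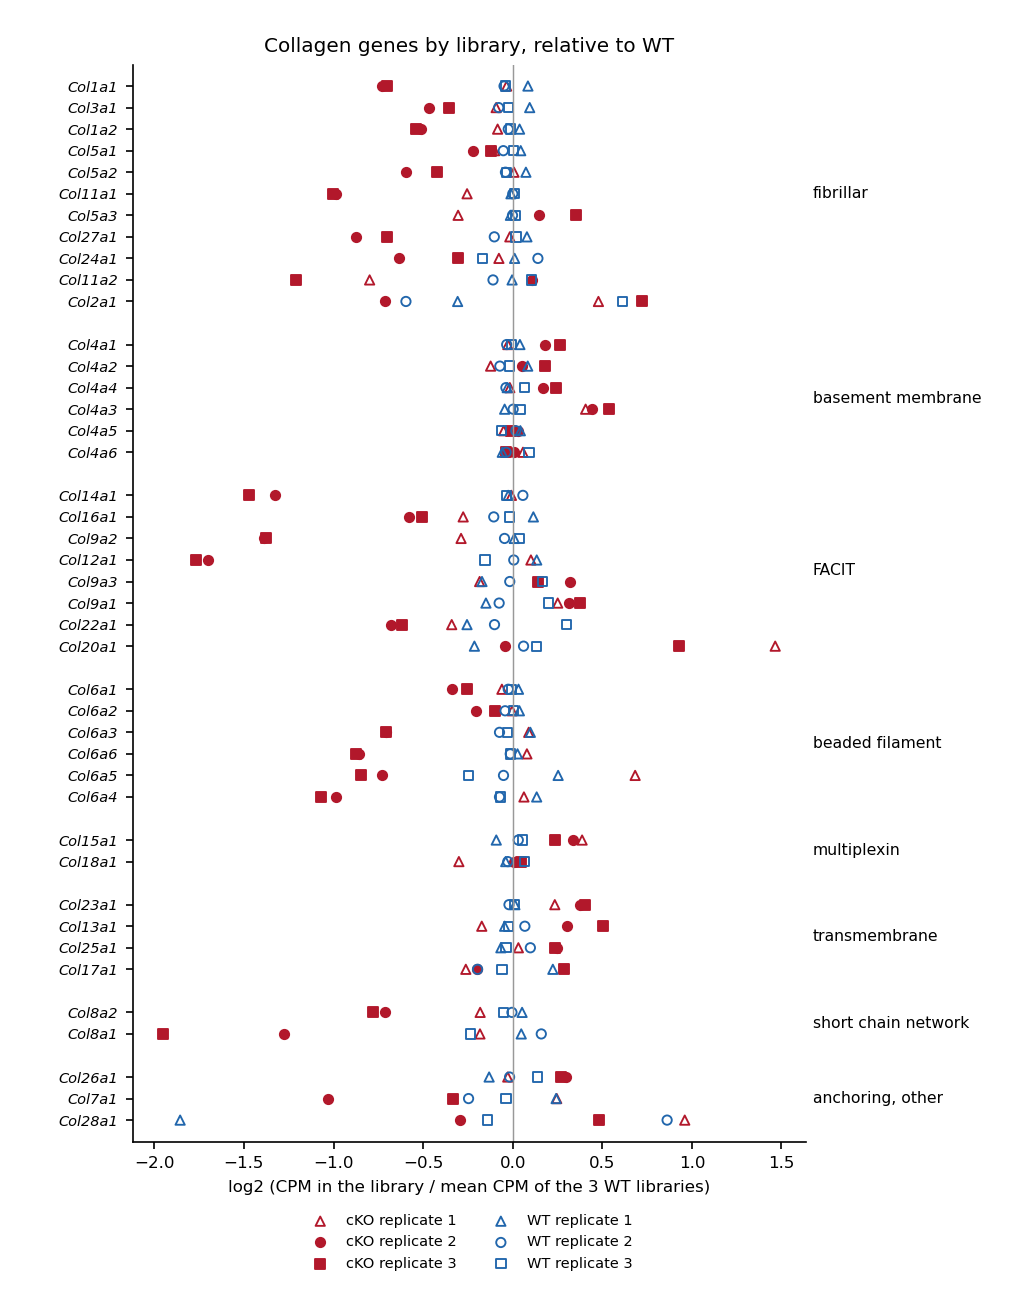
Level of each tested collagen gene in each library as log2 of its CPM over the mean CPM of the 3 WT libraries, in rows grouped by class; red symbols are cKO and blue symbols are WT, and symbol shapes mark the replicate. In many fibrillar, FACIT and beaded filament genes the filled red symbols (cKO replicates 2 and 3) lie left of 0 while the open red triangle (cKO replicate 1) lies near the WT symbols.

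The medians of the classes lay on both sides of 0. Fibrillar genes had a median log2 fold change of -0.33, with 0 of 11 that rose and 3 that fell, and FACIT genes had -0.49, with 0 of 8 tested that rose and 2 that fell. Neither DESeq2 nor limma-voom called a rise in either class, and 7 fibrillar and 5 FACIT genes had an unadjusted p under 0.05. Basement membrane genes had a median of 0.09, with 1 of 6 that rose and 0 that fell, also 0 in DESeq2 and limma-voom. The other collagens had a median of -0.10, with 2 of 17 tested that rose and 1 that fell. Without cKO replicate 1 the fibrillar median was -0.46 with 1 rise and 8 falls, and the FACIT median was -0.59 with 0 rises and 4 falls. The basement membrane median was then 0.16 with 3 rises and 0 falls, and that of the other collagens -0.16 with 5 rises and 9 falls. No test between the classes was made, since genes of a class are not independent replicates.

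Levels set per kilobase of gene model (RPKM) show what these classes amount to. Fibrillar genes summed to 1132, 773 and 804 RPKM in cKO libraries 1, 2 and 3, against 1243, 1136 and 1153 RPKM in WT. FACIT genes summed to 60.7, 29.6 and 28.8 RPKM in cKO, against 66.2, 64.4 and 63.3 RPKM in WT. In both classes cKO replicate 1 lay just below the lowest WT library and the other cKO libraries lay far below it. Basement membrane genes summed to 285, 322 and 343 RPKM in cKO, against 303, 284 and 293 RPKM in WT, so that cKO replicates 2 and 3 were above every WT library and cKO replicate 1 was inside the WT range. The other collagens summed to 599, 514 and 533 RPKM in cKO, against 607, 586 and 598 RPKM in WT, and the groups overlapped. Counts of all 44 genes together made up 1.595%, 1.23% and 1.28% of the cKO libraries, against 1.71%, 1.59% and 1.61% of the WT libraries. Basement membrane genes held 13.6%, 19.6% and 20.03% of those collagen counts in cKO, against 13.4%, 13.5% and 13.7% in WT.

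**Figure D2:**
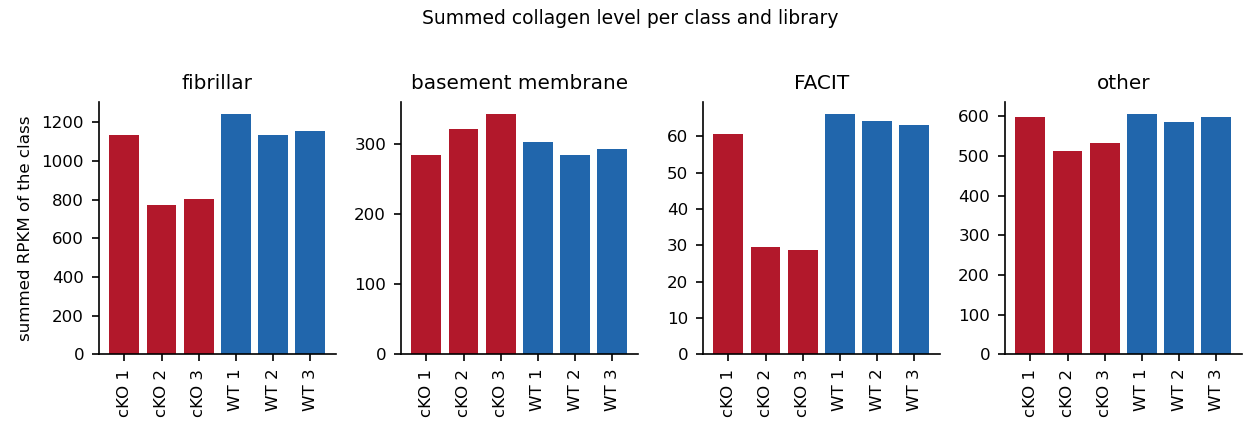
Summed RPKM of the collagen genes of each class in each library, as 1 bar per library, with cKO in red on the left and WT in blue on the right. The fibrillar and FACIT sums of cKO replicates 2 and 3 (773 and 804, and 29.6 and 28.8 RPKM) stand below all other bars of their class, while their basement membrane sums (322 and 343 RPKM) stand above.

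By mean level per length in WT testes the order began with Col1a1 (642 RPKM), Col6a1 (284 RPKM), Col3a1 (281 RPKM), Col1a2 (155 RPKM), Col4a1 (131 RPKM), Col6a2 (120 RPKM) and Col4a2 (108 RPKM). The neighbours Col6a1 and Col3a1 differed by less than the spread of Col3a1, whose SD was 17.4 RPKM over 3 libraries. In cKO testes the same 7 genes led, with 469 ± 136 RPKM for Col1a1 (SD, n = 3). The mean of Col4a1 (145 ± 14.7 RPKM) was then above that of Col1a2 (120 ± 22.3 RPKM), but not in cKO replicate 1 (129 and 146 RPKM). These orders rest on the length of the whole gene model. By mean CPM Col1a2 was above Col4a1 in cKO too (1493 and 1082 CPM), and Col3a1 and Col1a2 were above Col6a1 in WT. Some collagens known from cartilage were near the bottom in both groups, while Col9a2 (5.99 RPKM in cKO and 11.3 RPKM in WT) and Col11a1 (3.005 RPKM in cKO and 4.89 RPKM in WT) stood well above them. Col2a1, the main collagen of cartilage fibrils, averaged 0.0504 RPKM in cKO and 0.0414 RPKM in WT, and Col10a1, made by hypertrophic chondrocytes, had 0 to 3 counts in any library. Of 8 cartilage and bone markers, Matn1, Bglap, Matn3, Sp7 and Ibsp stayed under 1 CPM in every library, and Acan (5.65 to 6.96 CPM), Runx2 (4.57 to 7.25 CPM) and Sox9, which Sertoli cells also express (385 to 488 CPM), were higher. Of the 4 tested, 0 passed in edgeR, DESeq2 or limma-voom, 1 had an unadjusted p under 0.05, and Sox9 rose without cKO replicate 1.

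Fibrillar genes come first by abundance. Col1a1 and Col1a2 encode the chains of collagen I. Col1a1 had 4113, 2535 and 2594 CPM in cKO libraries 1, 2 and 3, against 4466, 4072 and 4095 CPM in WT libraries 1, 2 and 3. The cKO replicate 1 lay inside the WT range and the other cKO libraries lay far below it. The log2 fold change was -0.45 (SE 0.14, edgeR adjusted p = 0.0743), which did not pass, and -0.72 without cKO replicate 1 (edgeR adjusted p = 1.1e-10). Col1a2 had 1812, 1345 and 1321 CPM in cKO, against 1973, 1889 and 1903 CPM in WT, with all cKO libraries below all WT libraries. It fell by 0.36 on the log2 scale (SE 0.10, edgeR adjusted p = 0.0369), and by 0.53 without cKO replicate 1. The ratio of Col1a1 to Col1a2 per length was 4.30, 3.57 and 3.72 in cKO, against 4.29, 4.08 and 4.07 in WT (exact two-sided permutation p = 0.4, the smallest possible for 3 against 3 being 0.1). Its size rests on the lengths of the whole gene models, 6563 bases for Col1a1 and 12426 bases for Col1a2. Before division by length, the WT means were 4211 and 1921 CPM.

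Col3a1, the collagen of reticular fibres, had 2592, 1997 and 2157 CPM in cKO, against 2950, 2617 and 2722 CPM in WT. The groups did not overlap, but cKO replicate 1 was close to the lowest WT library. It fell by 0.30 on the log2 scale (SE 0.08, edgeR adjusted p = 0.0435), and by 0.41 without cKO replicate 1. Col11a1, a minor chain that is built into thin fibrils, had 52.3, 31.5 and 31.2 CPM in cKO, against 61.9, 62.4 and 62.8 CPM in WT. All cKO libraries were below a WT group with very little spread. Col11a1 fell by 0.71 on the log2 scale (SE 0.15, edgeR adjusted p = 0.0145), and by 0.997 without cKO replicate 1.

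The chains of collagen V start fibrils and set their width. Col5a1 had 342, 314 and 338 CPM in cKO, against 379, 354 and 369 CPM in WT, with no overlap (log2 fold change -0.15, SE 0.05, edgeR adjusted p = 0.106). Col5a2, which lies tail to tail with Col3a1 at a distance of 24614 bases on chromosome 1, had 433, 285 and 322 CPM in cKO, against 453, 418 and 420 CPM in WT, where cKO replicate 1 lay inside the WT range (log2 fold change -0.31, edgeR adjusted p = 0.121). Neither gene passed, and both did without cKO replicate 1, at -0.17 and -0.51 (edgeR adjusted p = 0.0155 and 8.27e-07). Col5a3, the third chain, was split the other way, with 18.1, 24.7 and 28.6 CPM in cKO, against 22.2, 22.3 and 22.6 CPM in WT (log2 fold change 0.10, edgeR adjusted p = 0.725), and at 0.25 it passed without cKO replicate 1 (edgeR adjusted p = 0.0459). Col27a1 had 28.5, 15.7 and 17.7 CPM in cKO, against 30.5, 26.9 and 29.2 CPM in WT (log2 fold change -0.49, edgeR adjusted p = 0.103). Col24a1, Col11a2 and Col2a1 did not pass either. Col27a1 fell by 0.79 and Col24a1 by 0.46 without cKO replicate 1 (edgeR adjusted p = 2.46e-06 and 0.0405). Col11a2 and Col2a1 stayed under 1 CPM in every library.

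The fitted log2 fold changes of the FACIT genes ran from -0.93 for Col9a2 to 0.89 for Col20a1, a gene with few counts. Col9a2, a chain of collagen IX, which decorates fibrils in cartilage, had 28.7, 13.4 and 13.5 CPM in cKO, against 35.3, 34.0 and 36.0 CPM in WT. All cKO libraries were below all WT libraries, and cKO replicate 1 was the nearest to them. Col9a2 fell by 0.93 on the log2 scale (SE 0.22, edgeR adjusted p = 0.0229), and by 1.38 without cKO replicate 1. Its partner chains Col9a1 and Col9a3 had between 1.36 and 4.21 CPM in any library and did not pass. Col16a1, a FACIT of smooth muscle and connective tissue, had 78.3, 63.5 and 66.7 CPM in cKO, against 103, 88.1 and 93.6 CPM in WT. Here cKO replicate 1 was also below every WT library. Col16a1 fell by 0.45 on the log2 scale (SE 0.08, edgeR adjusted p = 0.00596), and by 0.54 without cKO replicate 1.

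Col12a1 and Col14a1 encode FACIT collagens that bind collagen I fibrils in tissues under tension. Col12a1 had 168, 48.2 and 45.9 CPM in cKO, against 172, 157 and 141 CPM in WT. Col14a1 had 191, 76.5 and 69.1 CPM in cKO, against 189, 200 and 188 CPM in WT. In both genes cKO replicate 1 lay inside the WT range, while cKO replicates 2 and 3 were below every WT library by a wide gap. With all libraries neither passed (log2 fold change -0.85, SE 0.37, and -0.78, SE 0.28; edgeR adjusted p = 0.191 and 0.116). Without cKO replicate 1 the log2 fold changes were -1.74 and -1.40 (edgeR adjusted p = 1.48e-13 for each). Col22a1, found at tissue junctions, had 2.40, 1.90 and 1.98 CPM in cKO, against 2.55, 2.83 and 3.74 CPM in WT, with no overlap, and did not pass (log2 fold change -0.54, edgeR adjusted p = 0.148). Col20a1 was under 1 CPM in every library, and Col19a1 under 0.5 CPM.

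**Figure D3:**
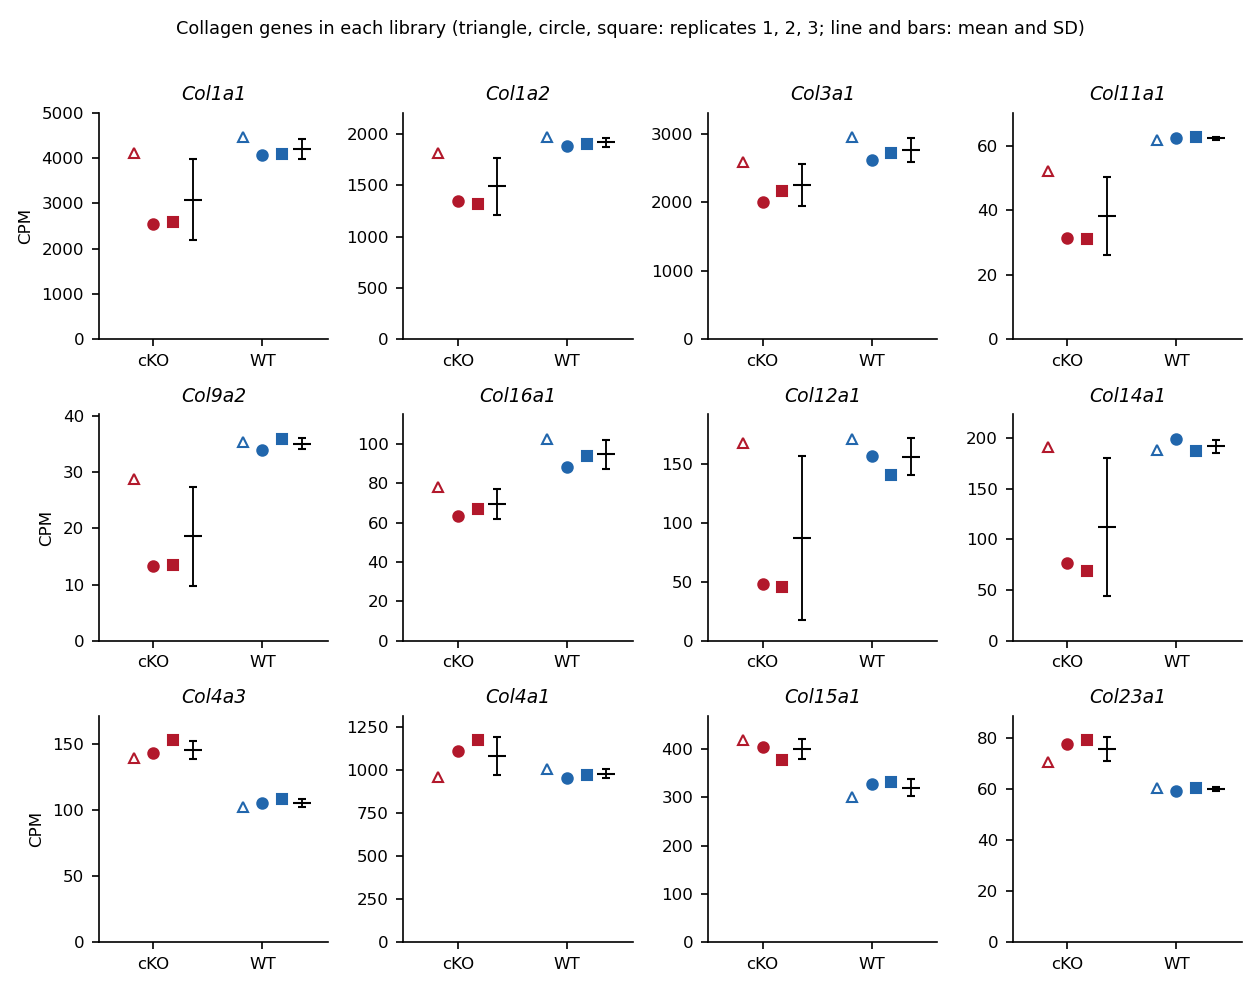
CPM of 12 collagen genes in each library, with cKO in red left of WT in blue; triangle, circle and square are replicates 1, 2 and 3, and the black line and bars give the group mean and SD. In Col12a1 and Col14a1 the cKO triangle (168 and 191 CPM) lies among the WT libraries, and in Col4a3, Col15a1 and Col23a1 every cKO library lies above every WT library.

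Collagen IV genes lie in head-to-head pairs, and the gene models of Col4a1 and Col4a2 overlap by 22 bases at their starts. Col4a1 and Col4a2 encode the chains of the network found in nearly all basement membranes. Col4a1 had 961, 1110 and 1174 CPM in cKO, against 1007, 957 and 974 CPM in WT, and Col4a2 had 657, 743 and 811 CPM in cKO, against 759, 681 and 708 CPM in WT. The groups overlapped in both genes, with cKO replicates 2 and 3 above every WT library in Col4a1 alone. Neither passed (log2 fold change 0.14 and 0.04, edgeR adjusted p = 0.211 and 0.785), and without cKO replicate 1 Col4a1 passed at 0.22 (edgeR adjusted p = 0.000982).

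Col4a3 and Col4a4 encode chains that form a separate network with Col4a5, known from the kidney filter, where their loss causes Alport syndrome. Col4a3 had 140, 143 and 153 CPM in cKO, against 102, 106 and 109 CPM in WT. Every cKO library, replicate 1 included, was above every WT library. Col4a3 rose by 0.46 on the log2 scale (SE 0.06, edgeR adjusted p = 0.000391), and by 0.49 without cKO replicate 1. Col4a4 had 292, 332 and 349 CPM in cKO, against 289, 288 and 310 CPM in WT, where cKO replicate 1 lay inside the WT range. Its log2 fold change was 0.13 (SE 0.07, edgeR adjusted p = 0.241), which did not pass, and 0.20 without cKO replicate 1 (edgeR adjusted p = 0.00519). The ratio of Col4a3 to Col4a4 per length was 0.509, 0.459 and 0.467 in cKO, against 0.376, 0.391 and 0.373 in WT. The ratios did not overlap between the groups (exact two-sided permutation p = 0.1, the smallest possible for 3 against 3). Per length, Col4a4 was thus above Col4a3 in all libraries, and by less in cKO. The ratio of Col4a1 to Col4a2 did not overlap either, at 1.30, 1.33 and 1.28 in cKO, against 1.18, 1.25 and 1.22 in WT. Nor did that of Col6a1 to Col6a2, at 2.27, 2.16 and 2.12 in cKO, against 2.36, 2.40 and 2.35 in WT (exact two-sided permutation p = 0.1 for each). The ratios of Col4a5 to Col4a6 and of Col3a1 to Col5a2 overlapped (exact two-sided permutation p = 0.8 and 0.7).

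The starts of Col4a4 (minus strand) and Col4a3 (plus strand) in the GRCm38 gene models are 71 bases apart on chromosome 1. The bases between them are shown since the paired genes differed in fold change; they come from the RefSeq promoter table (GRCm38.p6, chr1:82586850-82586920, minus strand, read towards Col4a4).

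Col4a4-Col4a3: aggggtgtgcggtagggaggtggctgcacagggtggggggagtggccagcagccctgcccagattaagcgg

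No CCAAT box, TATA box or GC box, as spelled out with the promoters below, occurs on either strand of these 71 bases. Both genes lie near Dis3l2 itself, with Col4a3 3.98 megabases and Col4a4 4.12 megabases from it. Within 10 megabases of Dis3l2, 6.33% of the other genes tested were called, against 8.34% of all genes tested, and the part of the targeted locus in the rise of Col4a3 was not tested. Col6a3 lies 3.72 megabases on the other side. Col4a5 and Col4a6, the pair on the X chromosome with 1308 bases between their starts, had 69.7, 73.7 and 71.7 CPM and 38.5, 37.1 and 36.1 CPM in cKO, against 74.4, 73.1 and 69.2 CPM and 35.6, 36.1 and 39.4 CPM in WT. The groups overlapped in both (log2 fold change -0.01 and 0.01, SE 0.06 and 0.07), and neither passed with or without cKO replicate 1.

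Among the other classes, collagen VI forms beaded filaments near cells and beside basement membranes. Col6a1 had 1191, 982 and 1039 CPM in cKO, against 1271, 1221 and 1236 CPM in WT, with no overlap, and missed the threshold (log2 fold change -0.21, SE 0.06, edgeR adjusted p = 0.0603). Col6a2, 85161 bases away on the same strand, had 996, 865 and 930 CPM in cKO, against 1024, 969 and 1001 CPM in WT, and the groups overlapped at cKO replicate 1 (log2 fold change -0.10, edgeR adjusted p = 0.303). Col6a3, the long chain that completes the trimer, had 492, 283 and 283 CPM in cKO, against 495, 439 and 453 CPM in WT. In Col6a4, Col6a5 and Col6a6 the same split appeared, most of all in Col6a5, with 114, 42.8 and 39.4 CPM in cKO, against 84.5, 68.4 and 59.8 CPM in WT, where cKO replicate 1 was above every WT library. Of the 6 genes, 0 passed in edgeR, although 4 had an unadjusted p under 0.05, and DESeq2 called 1 fall and limma-voom 2. Without cKO replicate 1 all 6 fell, with fold changes between -1.03 for Col6a4 and -0.16 for Col6a2 on the log2 scale.

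The multiplexins Col15a1 and Col18a1 bridge basement membranes and the fibrils beneath them. Col15a1 had 418, 404 and 377 CPM in cKO, against 300, 327 and 333 CPM in WT. All cKO libraries were above all WT libraries, and cKO replicate 1 was the highest. Col15a1 rose by 0.32 on the log2 scale (SE 0.06, edgeR adjusted p = 0.00466), and by 0.29 without cKO replicate 1. Col18a1, the source of endostatin, had 293, 362 and 373 CPM in cKO, against 351, 354 and 377 CPM in WT, with cKO replicate 1 as the lowest library (log2 fold change -0.07, edgeR adjusted p = 0.638).

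Of the transmembrane collagens, Col23a1 had 70.6, 77.8 and 79.2 CPM in cKO, against 60.5, 59.1 and 60.3 CPM in WT, with no overlap. It rose by 0.34 on the log2 scale (SE 0.06, edgeR adjusted p = 0.00518), and by 0.39 without cKO replicate 1, but not past the threshold without WT replicate 2 (edgeR adjusted p = 0.0508). Col13a1 and Col25a1 did not pass, and both did without cKO replicate 1, at 0.40 and 0.24 on the log2 scale (edgeR adjusted p = 0.000993 and 0.0296). Col17a1, the hemidesmosome collagen, had 5.68 to 8.31 CPM in cKO and 5.94 to 7.95 CPM in WT and did not pass either way. Among short chain collagens, known from Descemet's membrane of the cornea, Col8a2 had 16.3, 11.3 and 10.7 CPM in cKO, against 19.1, 18.4 and 17.8 CPM in WT. All cKO libraries were below all WT libraries, cKO replicate 1 by the least. Col8a2 fell by 0.54 on the log2 scale (SE 0.14, edgeR adjusted p = 0.0313), and by 0.75 without cKO replicate 1. Col8a1, at 3.12, 1.46 and 0.917 CPM in cKO and 3.66, 3.96 and 3.01 CPM in WT, did not pass (log2 fold change -0.99, edgeR adjusted p = 0.0972). Col26a1, a short collagen described in testis and ovary, had 38.4, 48.1 and 47.1 CPM in cKO, against 35.7, 38.6 and 43.0 CPM in WT, and did not pass (log2 fold change 0.19, edgeR adjusted p = 0.26). Col7a1, which forms the anchoring fibrils of skin, and Col28a1 did not pass. When cKO replicate 1 was left out, Col8a1 fell by 1.58 and Col7a1 by 0.64, and Col26a1 rose by 0.28 (edgeR adjusted p = 0.000143, 0.0224 and 0.0115).

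**Figure D4:**
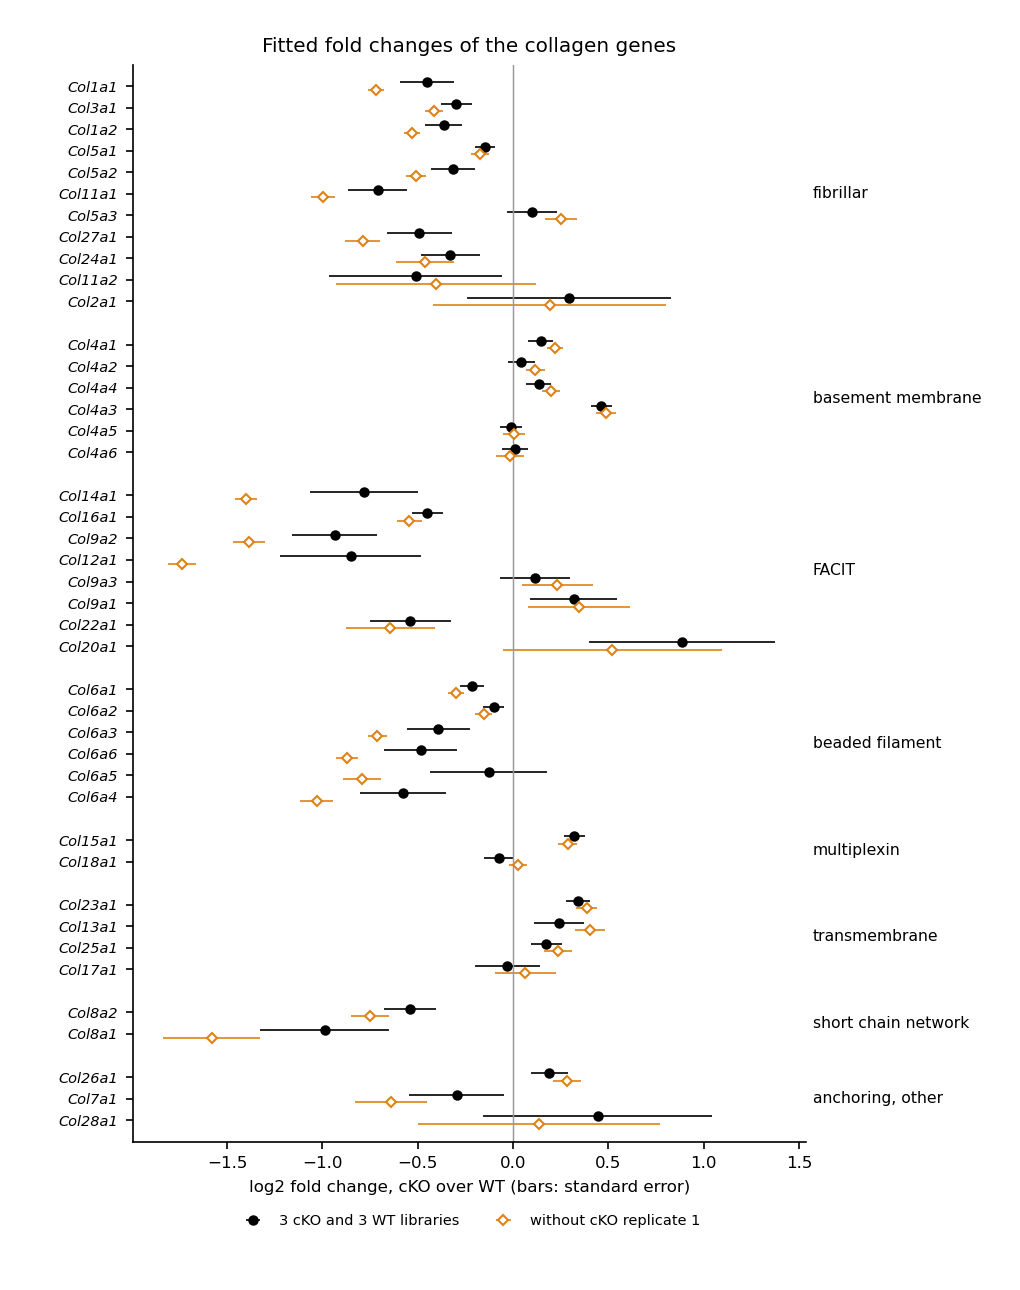
Fitted log2 fold change of cKO over WT with its standard error for each tested collagen gene, with all 6 libraries (black) and without cKO replicate 1 (orange), in rows grouped by class. Most fibrillar, FACIT and beaded filament genes move further below 0 without that library, while Col4a3 (0.46 and 0.49), Col15a1 (0.32 and 0.29) and Col16a1 (-0.45 and -0.54) change little.

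Calls depended on single libraries to different degrees. Col4a3, Col15a1 and Col16a1 passed under all 15 alternatives tried. Col23a1 passed under 14, Col11a1 and Col8a2 under 10, and Col1a2, Col3a1 and Col9a2 under 8. Col1a2, Col3a1, Col9a2 and Col8a2 lost their calls when any library other than cKO replicate 1 was left out, and Col11a1 when any WT library or cKO replicate 2 was, with edgeR adjusted p up to 0.153 for Col1a2, 0.186 for Col3a1, 0.107 for Col9a2, 0.145 for Col8a2 and 0.0759 for Col11a1. In the robust fit, Col9a2 (edgeR adjusted p = 0.198), Col11a1 (0.119), Col1a2 (edgeR adjusted p = 0.117) and Col3a1 (0.0695) did not pass. DESeq2 did not call Col1a2 (DESeq2 adjusted p = 0.0907) or Col9a2 (DESeq2 adjusted p = 0.0788), and with at least 1 CPM required in 3 libraries Col3a1 did not pass (edgeR adjusted p = 0.0521).

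The promoters of Col1a2, Col3a1 and Col16a1, which fell, and of Col15a1 and Col23a1, which rose, are shown as the 250 bases before the start given by RefSeq (GRCm38.p6), so that both directions can be set side by side. All are on the plus strand, at chr6:4505368-4505617, chr1:45311288-45311537, chr4:130047590-130047839, chr4:47207762-47208011 and chr11:51289670-51289919 in that order. The Col1a2 window lies inside the counted gene model, which starts at base 4504814, so it does not hold the bases before that start. Capitals mark the CCAAT box (those letters), the TATA box (spelled TATAAA) and the GC box (spelled GGGCGG), each searched as written and as its reverse complement, and the motifs shared no bases in these windows.

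Col1a2: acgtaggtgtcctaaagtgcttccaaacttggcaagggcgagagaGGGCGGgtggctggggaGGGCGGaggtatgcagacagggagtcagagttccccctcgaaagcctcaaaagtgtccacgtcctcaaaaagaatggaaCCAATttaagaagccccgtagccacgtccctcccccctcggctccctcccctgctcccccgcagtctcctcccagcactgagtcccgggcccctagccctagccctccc

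Col3a1: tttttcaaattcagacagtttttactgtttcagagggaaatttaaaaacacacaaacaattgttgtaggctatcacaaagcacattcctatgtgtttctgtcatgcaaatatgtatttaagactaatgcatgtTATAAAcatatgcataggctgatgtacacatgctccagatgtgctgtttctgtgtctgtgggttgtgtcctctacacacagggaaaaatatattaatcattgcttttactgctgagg

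Col16a1: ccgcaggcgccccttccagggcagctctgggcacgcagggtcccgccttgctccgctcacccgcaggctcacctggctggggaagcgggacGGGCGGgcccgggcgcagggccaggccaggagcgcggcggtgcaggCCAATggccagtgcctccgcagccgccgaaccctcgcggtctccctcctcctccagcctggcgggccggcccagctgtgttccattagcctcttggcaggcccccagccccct

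Col15a1: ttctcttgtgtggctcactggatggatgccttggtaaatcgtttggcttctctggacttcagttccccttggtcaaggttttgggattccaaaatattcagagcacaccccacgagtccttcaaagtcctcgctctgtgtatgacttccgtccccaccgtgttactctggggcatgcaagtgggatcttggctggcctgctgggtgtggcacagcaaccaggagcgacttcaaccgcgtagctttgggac

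Col23a1: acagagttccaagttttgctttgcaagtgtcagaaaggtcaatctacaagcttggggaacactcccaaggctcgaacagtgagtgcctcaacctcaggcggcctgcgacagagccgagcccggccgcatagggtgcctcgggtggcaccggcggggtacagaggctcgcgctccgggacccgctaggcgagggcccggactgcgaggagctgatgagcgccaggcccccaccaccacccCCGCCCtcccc

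The Col1a2 and Col16a1 windows each hold 1 CCAAT box beside GC boxes, the Col3a1 window holds 1 TATA box alone, the Col23a1 window 1 GC box, and the Col15a1 window none of these. Of the other genes that fell, Col11a1 had 1 CCAAT box and 2 GC boxes, Col9a2 had 2 GC boxes and Col8a2 had 4. The RefSeq table held windows for 35 of the 44 genes. Over their 38 windows of 250 bases, 34.2% held a CCAAT box, against 33.8% of 32851 windows of all genes. A TATA box was in 13.2% of the collagen windows, against 12.4% of all windows, and a GC box in 57.9%, against 32.7%. These are matches of letters, not sites of binding.

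Genes that act on collagen were followed in lists of their own. Beside their counts stand the shares over all genes tested, of which 3.4% rose and 4.94% fell. Without cKO replicate 1, 8.09% of all genes rose and 8.26% fell. An unadjusted p under 0.05 was reached by 4699 of all 20153 genes in edgeR. Of 22 genes for chain modification, folding and export, 0 passed in edgeR, with 2 at an unadjusted p under 0.05, 1 fall in DESeq2 and 0 in limma-voom, and a median log2 fold change of 0.01, and 2 rose and 2 fell without cKO replicate 1. Their lowest p belonged to Plod2, a lysyl hydroxylase of the chain ends, with 91.0, 90.8 and 89.7 CPM in cKO, against 124, 100 and 98.5 CPM in WT (log2 fold change -0.25, edgeR adjusted p = 0.0802). Of 14 genes tested for procollagen processing and cross-linking, Bmp1 rose and the median was -0.03. Bmp1, the protease that trims the procollagen end, had 144, 145 and 149 CPM in cKO, against 125, 123 and 121 CPM in WT, and rose by 0.24 on the log2 scale (edgeR adjusted p = 0.00977). This list had 1 rise and 3 falls without cKO replicate 1.

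Of 14 fibril-associated proteins, 1 rose and 2 fell, with a median of -0.07. With cKO replicate 1 left out, 1 rose and 7 fell, and the median was -0.25. Fn1, the fibronectin matrix that collagen fibrils assemble on, rose by 0.19 on the log2 scale (edgeR adjusted p = 0.018). Podn, a small leucine-rich proteoglycan, fell by 0.62 (edgeR adjusted p = 0.0227), with 4.80, 7.10 and 7.25 CPM in cKO, against 9.83, 9.90 and 9.90 CPM in WT. Podn did not pass without cKO replicate 2 or any WT library (edgeR adjusted p up to 0.0978). Fmod, fibromodulin, which binds collagen I fibrils, had 57.8, 33.6 and 31.1 CPM in cKO, against 67.1, 61.3 and 60.6 CPM in WT, with cKO replicate 1 nearest to the WT libraries as in Col11a1 and Col9a2. Fmod fell by 0.64 on the log2 scale (edgeR adjusted p = 0.0458), by 0.97 without cKO replicate 1, and not past the threshold without any other library (edgeR adjusted p up to 0.188), in DESeq2 (DESeq2 adjusted p = 0.166) or in the robust fit (edgeR adjusted p = 0.249). Of 9 collagen receptors tested, 0 passed in edgeR, DESeq2 and limma-voom, with 0 at an unadjusted p under 0.05, and without cKO replicate 1 Ddr1 rose and Itga1 fell.

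Of 12 collagen-degrading proteases and their inhibitors tested, 2 rose in edgeR and DESeq2 and 3 in limma-voom, 0 fell in any of these tools, 4 had an unadjusted p under 0.05, and the median was 0.13. The count was 4 rises and 0 falls without cKO replicate 1. Mmp2, gelatinase A, which cuts denatured collagen and collagen IV, had 291, 307 and 348 CPM in cKO, against 182, 167 and 179 CPM in WT. Every cKO library was far above every WT library. Mmp2 rose by 0.84 on the log2 scale (SE 0.07, edgeR adjusted p = 1.59e-05), and by 0.89 without cKO replicate 1, and it passed under all 15 alternatives. It lies on chromosome 8, where 13.5% of genes tested were called, against 8.34% of all genes, and the part of that chromosome in its rise was not tested. Timp3, a matrix-bound inhibitor of such proteases, had 372, 349 and 359 CPM in cKO, against 310, 295 and 297 CPM in WT, and rose by 0.26 on the log2 scale (edgeR adjusted p = 0.00612). Timp3 did not pass without WT replicate 2 (edgeR adjusted p = 0.0578). Of 16 genes of the TGF-beta pathway tied to collagen transcription, 0 passed in edgeR and limma-voom, although 6 had an unadjusted p under 0.05 and DESeq2 called 2 rises. Their lowest p values belonged to Smad7, an inhibitor of the pathway (log2 fold change 0.28, edgeR adjusted p = 0.0643), and to the ligand Tgfb1 (0.28, edgeR adjusted p = 0.065). Of this list, 3 genes rose and 4 fell without cKO replicate 1.

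**Figure D5:**
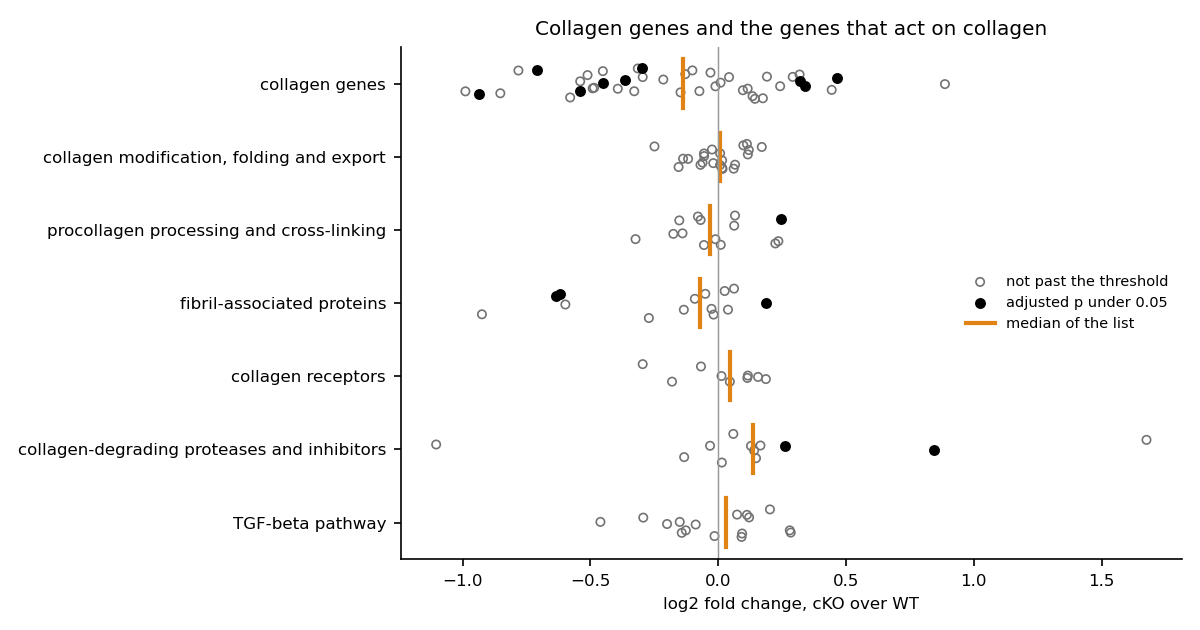
Log2 fold change of cKO over WT of each tested gene in the collagen genes and in 6 lists of genes that act on collagen, with filled points for an edgeR adjusted p under 0.05 and an orange bar at each list's median. The collagen median is -0.14 and the medians of the other lists lie between -0.07 and 0.13.

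Stromal and peritubular myoid cells were followed through markers that are not collagens. The 10 markers of interstitial stroma summed to 3876, 3421 and 3269 CPM in cKO, against 3419, 3260 and 3303 CPM in WT, and 0 fell in edgeR, DESeq2 or limma-voom, with 4 at an unadjusted p under 0.05 in either direction. The 10 markers of peritubular myoid cells summed to 3422, 2628 and 2642 CPM in cKO, against 2864, 2784 and 2820 CPM in WT, and 0 passed in edgeR, with 3 at an unadjusted p under 0.05 and 1 rise in DESeq2. In both lists cKO replicate 1 had the highest sum of all 6 libraries. Without it, 6 of the 10 myoid markers and 2 of the stroma markers (Lum and Mfap5) fell, against 8.26% of all genes tested. Lum is also on the list of fibril-associated proteins.

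Markers of other cell types moved as well. The 8 macrophage and leukocyte markers summed to 109.6, 108 and 107 CPM in cKO, against 88.3, 79.9 and 86.3 CPM in WT, and Ptprc, Csf1r, Lyz2 and Mrc1 rose. The 8 Leydig cell markers summed to 996, 1108 and 1099.9 CPM in cKO, against 908, 919 and 927 CPM in WT, and Cyp17a1, Lhcgr and Star rose. Of 8 endothelial markers Pecam1 rose, of 6 mesothelial markers Krt7 and Msln fell, and of 7 duct epithelium markers Epcam and Cdh1 fell. Without cKO replicate 1, 4 macrophage, 6 Leydig cell, 9 of the 12 Sertoli cell and 3 endothelial markers rose. In that fit 8 of the 10 germ cell, 3 mesothelial and 1 endothelial marker fell, and of the duct markers 1 rose and 2 fell. Calls were also more frequent over all genes, with 8.09% that rose and 8.26% that fell, against 3.4% and 4.94% with all libraries. The part of these cell types in the collagen results was not tested.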

How the data were processed

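RNA-seq of testes at postnatal day 4 gave 6 libraries, 3 cKO and 3 WT by their labels. Per the labels, total RNA went through random and poly(T) priming, strand selection and depletion of chosen transcripts, whereas polyA RNA is what the molecule entry says, a difference left as it stands. The authors deposited unscaled read counts, which per the file headers came from featureCounts 1.6.4 in a stranded mode with the GENCODE M18 annotation. Multi-mapping reads and reads over several genes were not counted under these settings. Cutadapt, HISAT2 and GRCm38.p5 are named in the submitters' processing notes, with no tool versions. Symbols came from GENCODE M21, which matched 54165 of 54232 gene IDs, and 0 columns were left without a sample.

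Low genes were dropped by filterByExpr (10 counts at least, 15 in total), libraries were TMM-scaled, and cKO was compared with WT by the two-sided quasi-likelihood test of edgeR 4.0.16 (R 4.3.3) without covariates, with Benjamini-Hochberg adjustment over 20153 genes and a threshold of 0.05. The procedure was tested on simulated counts in which 200 genes were given a set fold change. It recovered 52% of them at an absolute log2 fold change of 0.5 and 93% at 1, and 4.61% of calls were other genes. The simulation gave all genes the same spread and had no library set apart, so recovery in these data may differ. A collagen gene that did not pass is thus not shown to be unchanged. CPM uses TMM-scaled library sizes, and RPKM divides it by the deposited length of the gene model in kilobases. Alternatives were DESeq2 1.42.0 or its size factors, limma-voom (limma 3.58.1), the robust fit, library size alone, no filter, at least 1 CPM in 3 libraries, a replicate block, technical genes left out and each library left out.

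No collagen transcript had a copy in another gene (0 of 44; minimap2 2.31-r1302, 95% identity over 30% of its length). Exons shared with another gene on the same strand made up at most 1.54% of a member (Col20a1) and 1.44% of Col3a1. Rises among the stroma markers are not reported here. Figures were drawn with matplotlib 3.10.9.

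The members, classes and lists were chosen with earlier results of these data known. Named are all called members, those without overlap at an unadjusted p under 0.05, the most abundant member per class, neighbouring pairs, and in each other list the called genes and up to 3 with the lowest p. Further members and genes (Col12a1, Col6a3, Col6a5, Col27a1, Postn, Upk3b and Msln among them) were added after their values were seen.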

Additional observations from a re-analysis of the deposited data

How the results depend on the processing

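Of 622 fold changes of collagen genes under 15 alternatives, 520 kept their direction and their side of the threshold, 32 lost the call, 51 gained it and 19 turned sign. The 3 rises were 2 to 9 when a library was left out (9 without cKO replicate 1, 2 without WT replicate 2). The 6 falls were 16 with no filter on low counts, 13 in limma-voom, 3 in the robust fit and 16 with the replicate block. Without a library they were 1 to 21, with 21 without cKO replicate 1, 2 without cKO replicate 3, and 1 without cKO replicate 2 or any WT library. The calls over all genes, 1681 in the report, were 623 to 3375 without a library and 1798 with the replicate block. The median of the other collagens was -0.16 to -0.026 without a library. The cause of these changes was not tested.

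Over all genes tested, same-numbered cKO and WT libraries had correlations of 0.0537, 0.0273 and 0.0857 in their deviations, none over 0.1. The numbers were therefore not read as pairs, although each library correlated best with its own number. Pairing among the collagen genes alone was not tested, and the replicate block gave 16 falls there against 6 without it. In Col1a1, Col1a2 and Col3a1 replicate 1 was the highest library of both groups, and in Col11a1 and Col14a1 of cKO alone.

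No gene that turned sign had passed with all libraries. Col4a6, at 0.01, was -0.0096 with library size alone and -0.00098 with no filter. Leave-one-out ranges on the log2 scale were -0.0043 to 0.23 for Col9a3, -0.0046 to 1.23 for Col28a1, -0.036 to 0.12 for Col4a2 and -0.060 to 0.25 for Col5a3. They were -0.79 to 0.13 for Col6a5, -0.14 to 0.024 for Col18a1, -0.014 to 0.72 for Col2a1, -0.23 to 0.10 for Col17a1, -0.019 to 0.057 for Col4a6 and -0.040 to 0.011 for Col4a5. Members under 1 CPM (Col2a1, Col11a2, Col20a1 and Col28a1) rest on few counts.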
